A study of Mus musculus with 16 samples.

Results

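The 31 genes described here are markers of astrocytes, the star-shaped glial cells of the brain, and were followed gene by gene and as a mean level in the medial prefrontal cortex of adult mice. They were taken from a list of named astrocyte genes by matching symbols to the gene identifiers of the expression table, a rule that reads no expression value, although the list itself was chosen with earlier results of these data known, and 31 of 31 were found among 18424 genes. RNA sequencing of bulk tissue was done on 16 male C57BL/6N mice at postnatal day 120, 4 in each of 4 groups. WT-Veh and WT-Flx mice were wild type, and HT-Veh and HT-Flx mice were heterozygous for a protein-truncating mutation of Arid1b, a subunit of the SWI/SNF chromatin remodeling complex, made by CRISPR editing of the germline and so carried by every cell type. All pups were nursed by dams given drinking water with 0.2% saccharin from postnatal day 3 to 21, which for the Flx groups also held 0.1 mg/ml of fluoxetine, a selective serotonin reuptake inhibitor that reached the pups through the dam. All mice then received plain water until adulthood, so the libraries were made long after the drug ended.

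Astrocytes clear glutamate and potassium released by neurons, return glutamine to them, couple to each other through gap junctions, and face blood vessels with endfeet rich in water channels. They also store glycogen, make lipoprotein particles for neighboring cells and convert thyroid hormone to its active form. In injury or disease they raise intermediate filament and inflammatory genes, a state called reactive. The comparisons ask whether heterozygous Arid1b mutation changes the expression of these genes in the adult cortex and whether early fluoxetine changes it in either genotype.

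Values are normalized read counts, that is, estimated read counts divided by size factors; whether a correction for transcript length also entered is not given in the sources used here. Differences are given as log2 changes of the count plus 1 with their standard errors (SE) from limma, a linear model fitted to all genes, and adjusted p-values are Benjamini-Hochberg values over all genes tested. Several libraries stood apart before any group comparison. A score of 9 olfactory bulb markers, genes of a region next to the frontal cortex, was over 6 on the log2 scale in 5 libraries. They were replicates 1, 2 and 4 of WT-Flx, replicate 1 of WT-Veh and replicate 4 of HT-Veh. It lay between 3.87 and 5.04 in the other 11, so 3 of the 4 WT-Flx libraries and 0 of the 4 HT-Flx libraries were in the first set. The summed count of these markers ranged from 240 to 381 in HT-Flx, 286 to 3221 in HT-Veh, 445 to 8548 in WT-Flx and 271 to 11125 in WT-Veh mice. HT-Flx replicate 2 stood apart in another way, with the highest Gfap count of the 16 mice and the lowest count for 9 of the 31 genes. The share of all genes lowest in this mouse was not counted, so the 9 cannot be set beside a background. Markers of cortical glutamatergic neurons were detected in all 16 libraries, with Slc17a7, the vesicular glutamate transporter, between 32162 and 43463. Arid1b itself fell by 0.39 in heterozygotes over both treatments (SE 0.082; exact permutation test of genotype within treatment, two-sided, p = 0.00122; limma adjusted p = 0.124).

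All 31 genes were expressed in every mouse. Counts per kilobase of the longest coding transcript, the only scale on which different genes can be set side by side, were highest for Apoe, the main brain apolipoprotein, at 18886 and for Glul, glutamine synthetase, at 18083. Clu, a secreted chaperone of lipoprotein particles, stood at 9289 and Slc1a2, the glutamate transporter GLT-1, at 9247. Aqp4, the water channel of astrocyte endfeet, stood at 614, and the lowest levels per kilobase were those of Sox9, a transcription factor of glial identity, at 185, and Bmpr1b, a bone morphogenetic protein receptor, at 141. Between mice of 1 group the genes varied about as much as other genes with a mean count in the same range. The residual standard deviation on the log2 scale had a median of 0.153 over the 31 genes. It was 0.150 over the 7356 genes whose mean count lay between the lowest and highest of the 31, without matching of level. Of the 31, 22 lay under 0.2, beside 5551 of the 7356. Clu was the steadiest, at 0.0942. Gfap, the intermediate filament protein of reactive astrocytes, was the most variable at 0.440, followed by Slc1a2 at 0.370, Slc6a11, a GABA transporter, at 0.290, and Gjb6, the gap junction protein connexin 30, at 0.265.

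**Figure D1:**
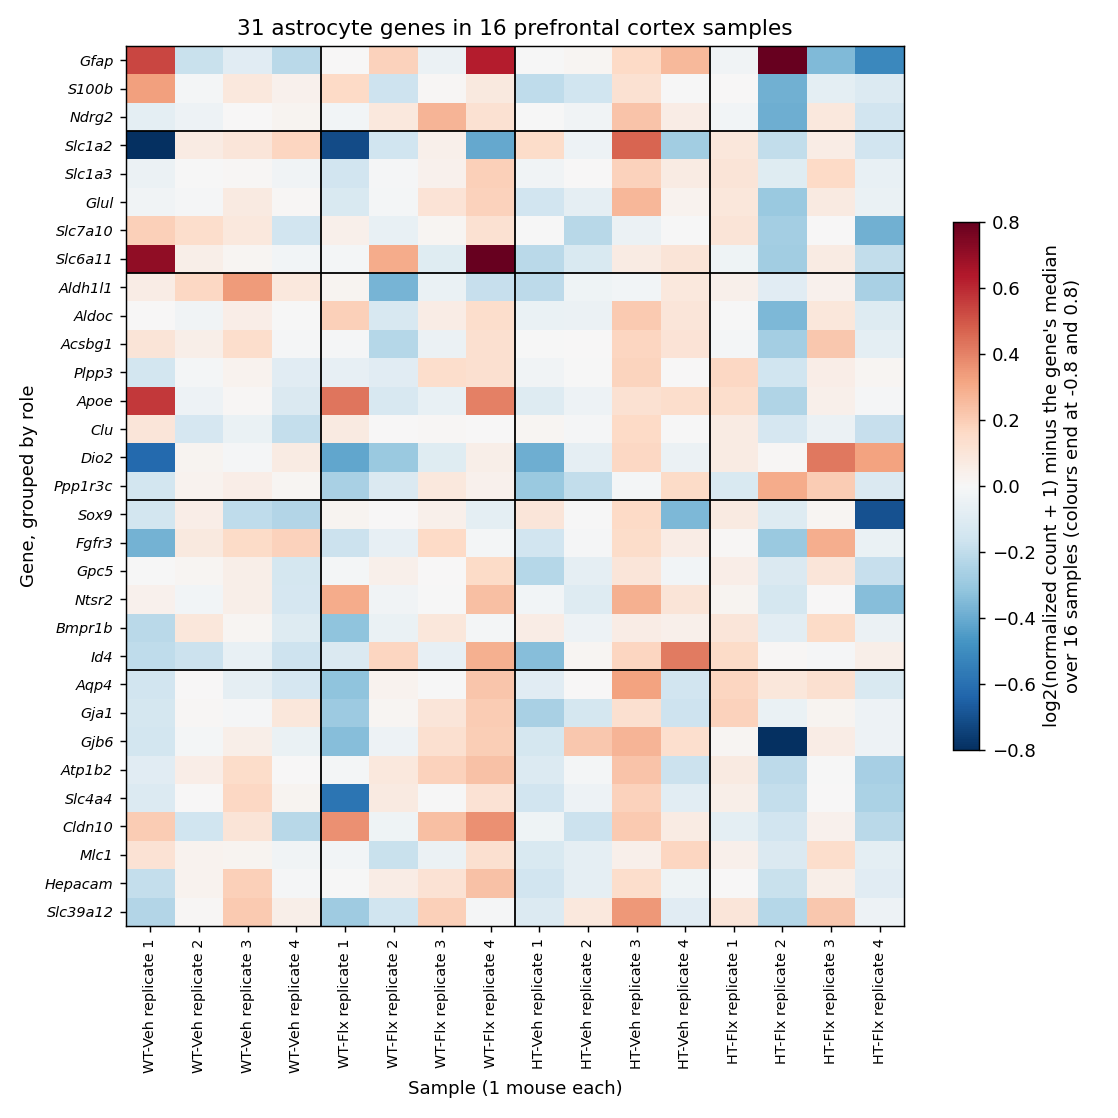
Each row is 1 of the 31 astrocyte genes, grouped by role, and each column 1 mouse; color gives the log2 count plus 1 minus that gene's median over the 16 mice, with colors ending at -0.8 and 0.8. Strong colors sit in single cells, such as Gfap at 4950 in HT-Flx replicate 2 and Slc1a2 at 55805 in WT-Veh replicate 1, rather than in blocks of 4 that follow the groups.

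The plot of all genes by mouse shows this pattern: departures from a gene's median occur mouse by mouse. No astrocyte gene passed an adjusted p of 0.05 in any of 7 comparisons tested with limma. In HT-Veh against WT-Veh mice, 0 of 31 passed, beside 0.0178% of all genes, and 1 had an unadjusted p under 0.05, beside 4.88% of all genes. In HT-Flx against HT-Veh mice, 0 passed, beside 0% of all genes, and 1 had an unadjusted p under 0.05, beside 3.07%. The shares of astrocyte genes in both comparisons were near the background.

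In WT-Flx against WT-Veh mice, 0 of 31 passed limma's adjusted threshold, beside 0% of all genes, and 1 had an unadjusted p under 0.05, beside 4.2%. In HT-Flx against WT-Flx mice, 0 passed, beside 0.0417%, and 3 had an unadjusted p under 0.05, beside 10.4%. The latter comparison is also the one in which the olfactory bulb markers differed most among the 4 pairwise ones, with 8 of 8 tested markers lower in HT-Flx mice at an unadjusted p under 0.05 and a median log2 change of -2.72. For several of the named genes, values from fits without the marker-rich libraries or with the bulb score as a covariate are given below.

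For genotype over both treatments, 0 of 31 astrocyte genes passed, beside 0.0569% of all genes, and 2 had an unadjusted p under 0.05, beside 11.7%. For fluoxetine over both genotypes, 0 passed, beside 0%, and 1 had an unadjusted p under 0.05, beside 3.23%. For the interaction, which asks whether the fluoxetine difference differs between genotypes, 0 passed, beside 0%, and 3 had an unadjusted p under 0.05, beside 4.29%. Because the tissue was bulk, fewer astrocytes and less RNA per astrocyte cannot be told apart in any of these values.

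The absolute log2 change was under 0.2 for 27 of the 31 genes in HT-Veh against WT-Veh, 29 in HT-Flx against HT-Veh, 28 in WT-Flx against WT-Veh and 24 in HT-Flx against WT-Flx mice. The 95% interval lay wholly within 0.5 of 0 on the log2 scale for 28, 27, 26 and 24 genes in those 4 comparisons, and for 29 genes over both treatments and 31 over both genotypes. For the interaction, whose SE had a median of 0.15, it did so for 18 genes. The shares of all genes within these bounds were not counted, so the counts describe the 31 genes only. The widest interval in HT-Veh against WT-Veh mice was that of Slc1a2, from -0.34 to 0.83. In HT-Flx against WT-Flx mice the widest was that of Gfap, from -0.77 to 0.50. With 4 mice a group, true changes up to those bounds in these genes were thus not excluded.

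**Figure D2:**
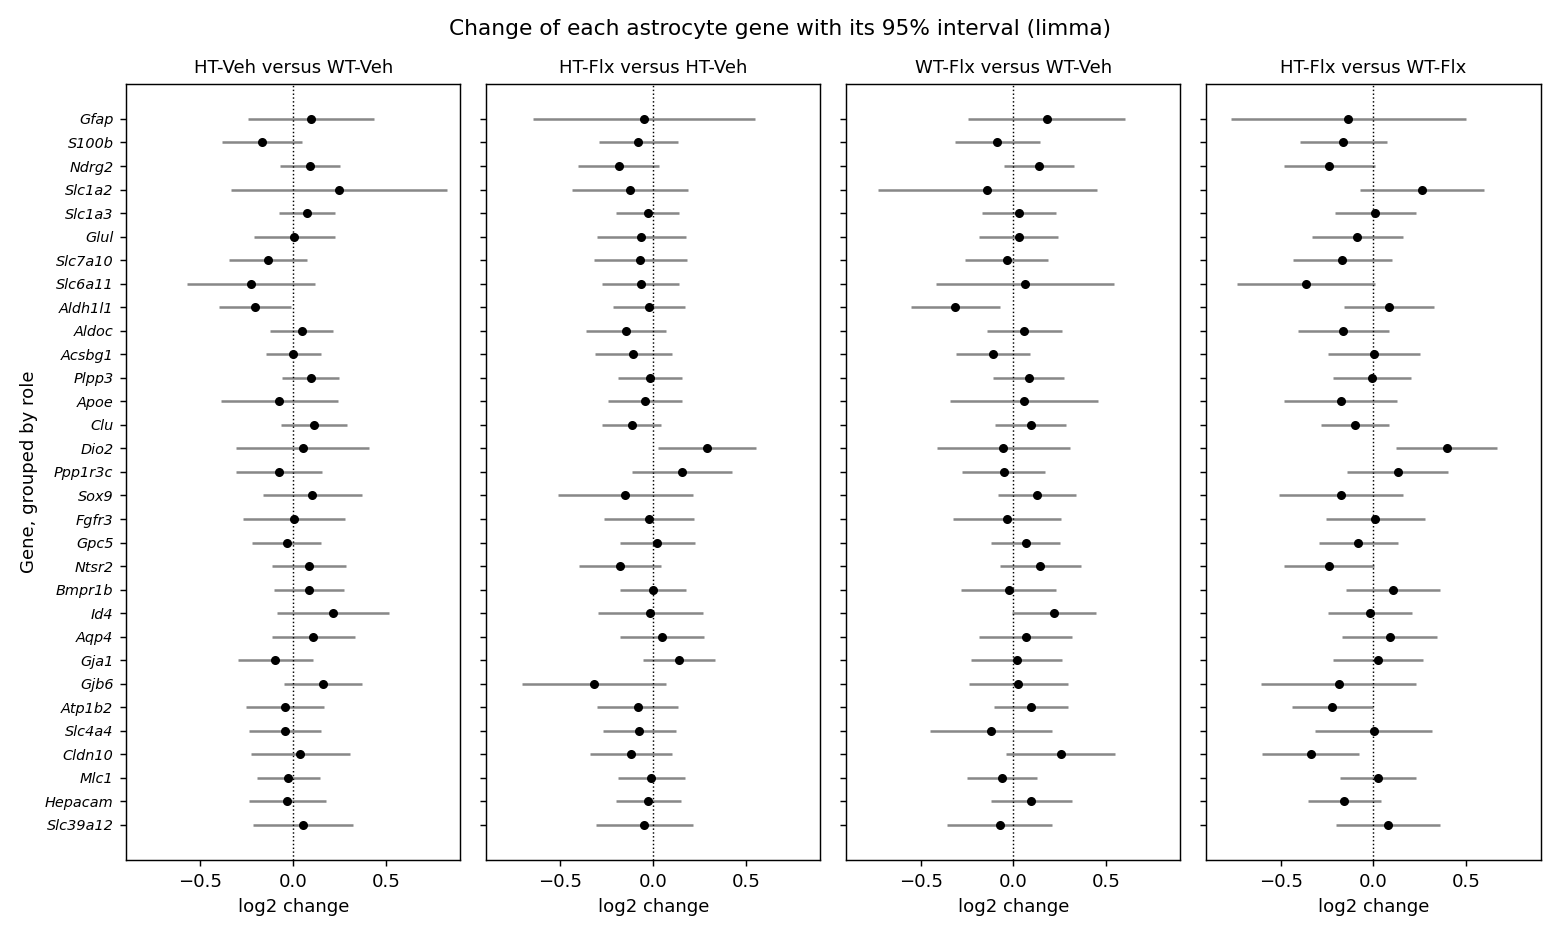
Log2 change of each astrocyte gene (point) with its 95% interval from limma (bar) in the 4 pairwise comparisons, genes grouped by role; the dotted line marks 0. Most points lie within 0.2 of 0, and the genes whose intervals leave out 0 are Aldh1l1 against WT-Veh mice in both panels, Dio2 in both panels of HT-Flx mice, and Cldn10 and Atp1b2 in HT-Flx against WT-Flx mice.

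The panels of intervals hold 6 such cases, all among the unadjusted counts above. Of the glutamate and amino acid handling genes, Slc1a3, the glutamate transporter GLAST, was among the steadiest. Its counts were 18354, 18977, 19136 and 18608 in WT-Veh mice and 17054, 18862, 19444 and 21660.4 in WT-Flx mice. They were 18608, 19003, 21583 and 19896 in HT-Veh mice and 20382, 17724, 21172 and 18236 in HT-Flx mice. The 4 groups overlapped throughout, and the log2 changes of Slc1a3 ran from -0.031 in HT-Flx against HT-Veh to 0.073 in HT-Veh against WT-Veh mice.

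Slc1a2, which carries most glutamate uptake in the adult forebrain, varied far more between mice. Its counts were 55805, 118194, 121008 and 127142 in WT-Veh and 68878, 101235, 116099 and 85069 in WT-Flx mice. They were 125229, 109828, 155956 and 93158 in HT-Veh and 120368, 98379, 117542 and 101656 in HT-Flx mice. The lowest values belonged to WT-Veh replicate 1 and WT-Flx replicates 1 and 4, the highest to HT-Veh replicate 3, and the groups overlapped. The log2 change in HT-Veh against WT-Veh mice was 0.24 (SE 0.26, limma adjusted p = 0.924), and it was 0.079 without the 5 libraries rich in olfactory bulb markers.

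Glul, which makes glutamine from glutamate, ranged from 40796 to 60141 over the 16 mice, and its log2 changes in the 4 pairwise comparisons lay between -0.086 and 0.028. Slc7a10, a transporter of serine, glycine and other small neutral amino acids, ranged from 592 to 884, with log2 changes from -0.17 to -0.036. Slc6a11, the GABA transporter GAT-3 of astrocytes, had the smallest p of all members for genotype over both treatments. Its counts were 7718, 4887, 4782 and 4653 in WT-Veh and 4675, 5818, 4429 and 8289 in WT-Flx mice. They were 4067, 4345, 4956 and 5075 in HT-Veh and 4621, 3899, 4939 and 4128 in HT-Flx mice.

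Slc6a11 was thus high in 2 wild-type mice, WT-Veh replicate 1 and WT-Flx replicate 4. WT-Flx replicate 2 followed, and the other 13 mice lay between 3899 and 5075 in all groups. Its log2 change for genotype was -0.29 (SE 0.13, limma adjusted p = 0.401). Without the 5 libraries rich in olfactory bulb markers, which include both of those mice, it was -0.060 (SE 0.079, limma adjusted p = 0.930). That fit kept all 4 groups, and the 1 WT-Flx mouse left was assumed to vary like the other groups.

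Of the 9 water, ion and junction genes, none had an unadjusted p under 0.05 in 3 of the pairwise comparisons, and 2 did in HT-Flx against WT-Flx mice. Aqp4 counts were 2781, 3104, 2948 and 2822 in WT-Veh and 2471, 3150.2, 3086 and 3606 in WT-Flx mice. They were 2902, 3101, 3873 and 2781 in HT-Veh and 3485, 3293, 3383 and 2839.9 in HT-Flx mice. The groups overlapped, with the lowest value in WT-Flx replicate 1 and the highest in HT-Veh replicate 3, and the 4 log2 changes lay between 0.046 and 0.11.

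Gja1, connexin 43, the other main gap junction protein of astrocytes, had counts of 4020.4, 4450.2, 4402 and 4709.7 in WT-Veh and 3613, 4479, 4726 and 5095 in WT-Flx mice. The HT-Veh mice had 3699, 4011, 4847 and 3946 and the HT-Flx mice 5039, 4263, 4494 and 4307. Groups overlapped here too, and the log2 change of Gja1 in HT-Flx against HT-Veh mice was 0.14 (SE 0.089). Gjb6 lay between 1145 and 1751 in 15 mice and at 810.2 in HT-Flx replicate 2, and its log2 change in the same comparison was -0.32 (SE 0.18, limma adjusted p = 1.00).

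Cldn10, a tight junction family protein, and Atp1b2, the sodium pump subunit and adhesion molecule of glia, were 2 of the 3 astrocyte genes with an unadjusted p under 0.05 in HT-Flx against WT-Flx mice. Cldn10 counts were 805, 608, 737 and 803 in WT-Flx and 591, 560.4, 639 and 537 in HT-Flx mice, against 717, 558, 668 and 534 in WT-Veh and 608, 553, 722 and 653 in HT-Veh mice. The WT-Flx and HT-Flx groups overlapped only through WT-Flx replicate 2, at 608, and HT-Flx replicate 3, at 639. The log2 change of Cldn10 was -0.34 (SE 0.12, limma adjusted p = 0.381). Without the 5 libraries rich in olfactory bulb markers it was also -0.34, with 1 WT-Flx mouse left. With the bulb score in the fit it was -0.23 (SE 0.14, limma adjusted p = 0.770). For Atp1b2 the log2 change was -0.22 (SE 0.10, limma adjusted p = 0.470), with WT-Flx mice between 13078 and 15587 and HT-Flx mice between 11039 and 13908, so that the groups overlapped.

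The other 4 genes of this role stayed within 0.2 of 0 on the log2 scale in all 4 pairwise comparisons. They are Slc4a4, a sodium bicarbonate cotransporter, Mlc1 and Hepacam, the partner membrane proteins of astrocyte endfeet, and Slc39a12, a zinc transporter. Slc4a4 was low in WT-Flx replicate 1, at 3515, against 4414 to 5980 in the other 15 mice.

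Among the 8 genes of metabolism and lipid transport, Aldh1l1, a folate enzyme used as a general astrocyte marker, and Dio2, the deiodinase that activates thyroid hormone, had the smallest p of all members in several comparisons. Aldh1l1 counts were 1768, 1902, 2144 and 1796 in WT-Veh mice, a mean of 1903 ± 171 (SD, n = 4). They were 1718, 1307, 1630.5 and 1489.9 in WT-Flx mice (1536 ± 179), 1464, 1657, 1672 and 1800.4 in HT-Veh mice (1648 ± 139) and 1745, 1594, 1736 and 1418 in HT-Flx mice (1623 ± 153). The WT-Veh mice were highest: all 4 exceeded every WT-Flx and every HT-Flx mouse, and HT-Veh replicate 4, at 1800, was the one HT-Veh mouse inside their range. In GRCm38, Aldh1l1 lies on chromosome 6 from 90486427 to 90600203 on the plus strand, and Dio2 on chromosome 12 from 90724552 to 90738438 on the minus strand.

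The log2 change of Aldh1l1 in WT-Flx against WT-Veh mice was -0.31 (SE 0.11, 95% interval -0.55 to -0.074, limma adjusted p = 1.00). Without the 5 libraries rich in olfactory bulb markers the log2 change was -0.25, with 1 WT-Flx mouse left. Aldh1l1 was 1 of 31 astrocyte genes whose 2 groups did not overlap in that comparison, beside 2.89% of all genes in either direction. In the other pairwise comparisons, 0 of 31 were free of overlap, beside 3.84% of all genes in HT-Veh against WT-Veh, 1.99% in HT-Flx against HT-Veh and 5.83% in HT-Flx against WT-Flx mice. In HT-Veh against WT-Veh mice, which share the WT-Veh controls with WT-Flx against WT-Veh, the log2 change of Aldh1l1 was -0.21 (SE 0.087, limma adjusted p = 0.922). Without the 5 marker-rich libraries it was -0.28.

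In heterozygotes the fluoxetine difference of Aldh1l1 was -0.023 (SE 0.089). The difference between the 2 fluoxetine differences was 0.29 (SE 0.14, limma adjusted p = 0.998). Over both genotypes the fluoxetine difference was -0.17 (SE 0.071, limma adjusted p = 1.00). None of these passed adjustment, and the second smallest p for fluoxetine over both genotypes, that of Acsbg1, an acyl-CoA synthetase, went with a log2 difference of -0.11 (SE 0.067, limma adjusted p = 1.00), which was -0.069 without HT-Flx replicate 2.

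Dio2 counts were 1868, 2909, 2851 and 3003 in WT-Veh mice, a mean of 2658 ± 530.3 (SD, n = 4), and 2153, 2334, 2682 and 2965 in WT-Flx mice (2533 ± 362). They were 2191, 2727, 3217 and 2783 in HT-Veh mice (2729 ± 420.3) and 3000.0, 2889.9, 3841 and 3586 in HT-Flx mice (3329 ± 458). HT-Flx mice held the highest pair of values, 3586 and 3841, but overlapped every other group, the WT-Flx group only through WT-Flx replicate 4.

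The log2 change of Dio2 in HT-Flx against WT-Flx mice was 0.39 (SE 0.13, limma adjusted p = 0.355), and its unadjusted p was the smallest of any astrocyte gene in any comparison. Once the bulb score entered the fit it was 0.22 (limma adjusted p from 0.20 to 0.87 over the alternatives other than leaving out 1 mouse). In HT-Flx against HT-Veh mice it was 0.29 (SE 0.12, limma adjusted p = 1.00), and 0.19 without HT-Veh replicate 1, the lowest mouse of its group. These comparisons share the HT-Flx mice.

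The remaining metabolic and lipid genes differed less. Aldoc, an aldolase of glycolysis, had log2 changes between -0.16 and 0.060 in the 4 pairwise comparisons, Plpp3, a lipid phosphate phosphatase, between -0.017 and 0.093, and Clu between -0.12 and 0.11. Ppp1r3c, a glycogen-targeting subunit of protein phosphatase, lay between -0.077 and 0.16. Apoe had 37021, 24342, 25173 and 23168 in WT-Veh and 33660.3, 22938, 24052 and 33067 in WT-Flx mice, with 23318, 24314, 27299.9 and 27623 in HT-Veh and 27594, 21232, 25728 and 24941 in HT-Flx mice, so that WT-Veh replicate 1 and WT-Flx replicates 1 and 4 were the 3 highest mice and no other exceeded 27623.

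**Figure D3:**
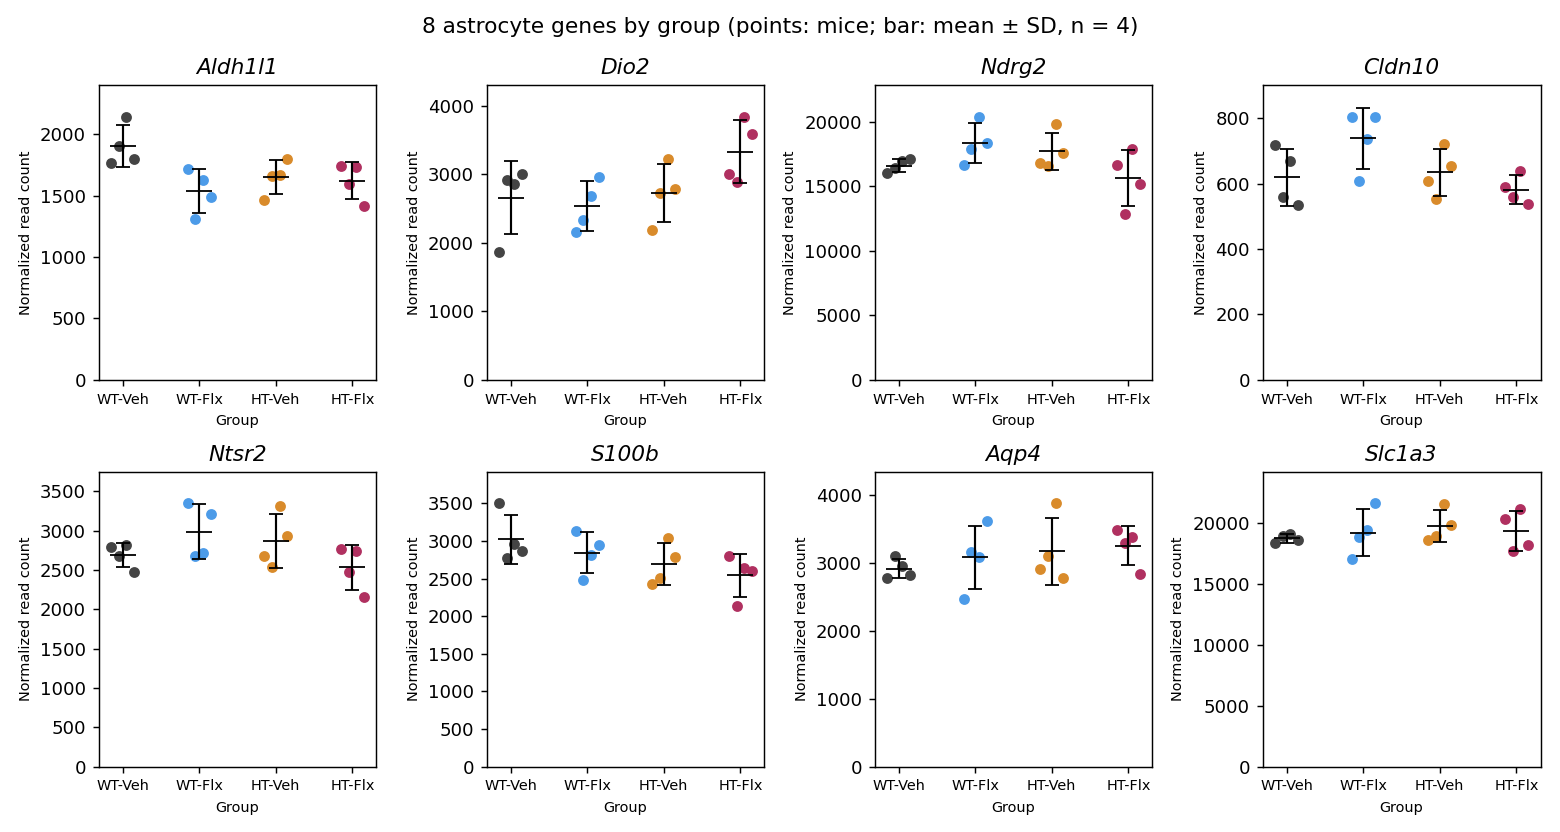
Normalized read counts of 8 astrocyte genes by group, 1 point per mouse, with the mean and SD of 4 mice as bars; every axis starts at 0. The 4 WT-Veh mice lie above the 4 WT-Flx mice for Aldh1l1, and in the other panels the groups compared overlap.

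The plot of counts by group shows how much the points of neighboring groups interleave. Gfap varied widely among mice of the same group. Gfap counts were 3296, 2014, 2139 and 1962 in WT-Veh and 2278, 2584, 2206 and 3518 in WT-Flx mice, and 2276, 2297, 2544 and 2721 in HT-Veh and 2234, 4950, 1786 and 1593 in HT-Flx mice. The HT-Flx group held the highest mouse of all, replicate 2, and the 2 lowest, replicates 3 and 4. The groups overlapped, and the log2 change of Gfap in HT-Flx against HT-Veh mice was -0.051 with an SE of 0.27.

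S100b, a calcium-binding protein, had counts of 3502, 2768, 2959 and 2869 in WT-Veh and 3128, 2488, 2812 and 2953 in WT-Flx mice, and 2427, 2507, 3040.1 and 2790.0 in HT-Veh and 2801, 2137, 2648 and 2596 in HT-Flx mice. Its log2 change for genotype over both treatments was -0.17 (SE 0.074, limma adjusted p = 0.409) and -0.11 once the bulb score entered the fit. In HT-Veh against WT-Veh mice it was -0.17 (SE 0.10, limma adjusted p = 0.922), and -0.096 without WT-Veh replicate 1. The genotypes overlapped, and neither value passed adjustment.

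Ndrg2, a member of the N-myc downstream-regulated gene family that is abundant in astrocytes, had the smallest p of the members for the interaction. Its counts were 16002, 16422, 16932 and 17117 in WT-Veh and 16658, 17925, 20415 and 18367 in WT-Flx mice, and 16846, 16593, 19799.8 and 17607 in HT-Veh and 16668, 12861, 17871 and 15168 in HT-Flx mice. The fluoxetine difference was 0.14 (SE 0.085) in wild type and -0.19 (SE 0.10) in heterozygotes. The interaction was -0.33 (SE 0.14, limma adjusted p = 0.998), and the difference in heterozygotes was -0.096 without HT-Flx replicate 2, the lowest mouse of the 16. Without the 5 libraries rich in olfactory bulb markers the interaction was -0.47. That value rests on 1 WT-Flx mouse, replicate 3, whose count of 20415 was the highest of the 16.

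Cldn10 and the neurotensin receptor gene Ntsr2 had interactions of similar size, -0.38 (SE 0.17, limma adjusted p = 0.998) and -0.33 (SE 0.15, limma adjusted p = 0.998). For both, the fluoxetine difference was above 0 in wild type, 0.25 for Cldn10 and 0.15 for Ntsr2, and below 0 in heterozygotes, -0.12 and -0.18. Both differences had intervals that held 0 in each gene.

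Of the 6 receptor, signaling and transcription genes, Id4, an inhibitor of basic helix-loop-helix factors, had the second smallest p among members in WT-Flx against WT-Veh mice. Its counts were 1917, 1960.5, 2114 and 1961 in WT-Veh and 2039, 2480.3, 2107 and 2683 in WT-Flx mice, with 1738, 2231, 2485 and 2938 in HT-Veh and 2453, 2218, 2191 and 2277 in HT-Flx mice. The log2 change was 0.22 (SE 0.10, limma adjusted p = 1.00). It was 0.067 without the 5 libraries rich in olfactory bulb markers, a fit that kept 1 WT-Flx mouse. WT-Flx replicates 2 and 4, both among those 5 libraries, were the mice above the WT-Veh range.

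Sox9 was lowest in HT-Flx replicate 4, at 497, against 627 to 897 in the other 15 mice, and its log2 changes ran from -0.17 to 0.13. Fgfr3, a fibroblast growth factor receptor, had log2 changes between -0.033 and 0.011, Bmpr1b between -0.024 and 0.11, and Gpc5, a heparan sulfate proteoglycan, between -0.081 and 0.067. None had an unadjusted p under 0.05 in any pairwise comparison.

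As a set, the 31 genes moved more between mice than between groups. The mean log2 level of the 31 genes was 11.97 ± 0.044 (SD, n = 4) in WT-Veh and 12.00 ± 0.105 in WT-Flx mice, and 11.99 ± 0.118 in HT-Veh and 11.94 ± 0.118 in HT-Flx mice. The largest difference between group means was smaller than the SD of 3 of the 4 groups. By mouse it was 11.94, 11.98, 12.03 and 11.94 in WT-Veh mice and 11.89, 11.94, 12.03 and 12.13 in WT-Flx mice. The HT-Veh mice had 11.87, 11.93, 12.15 and 12.00, and the HT-Flx mice 12.03, 11.84, 12.05 and 11.84.

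**Figure D4:**
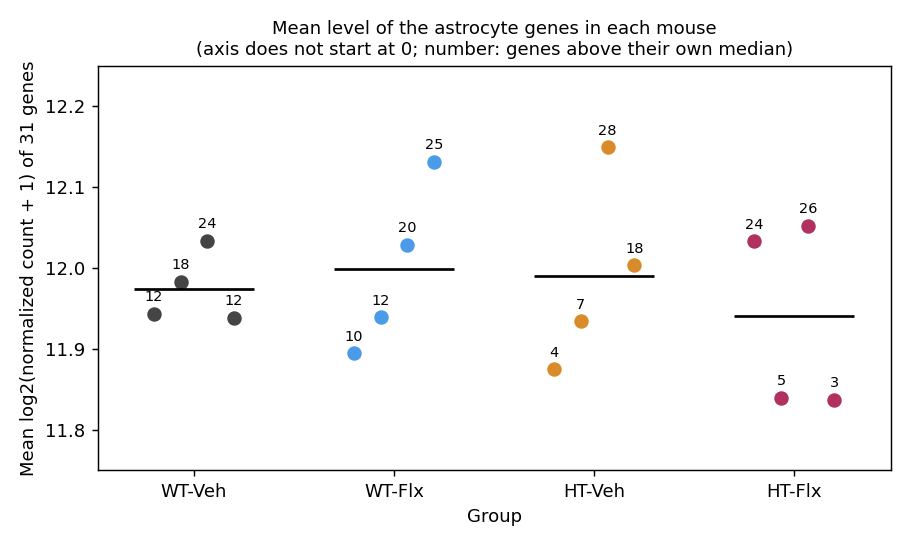
Mean log2 level of the 31 astrocyte genes in each mouse (point) by group, with the group mean as a line; the number over a point counts the genes above their own median of the 16 mice. HT-Veh replicate 3 has 28 genes above and HT-Flx replicate 4 has 3, and the 4 groups overlap.

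The plot of mean level by mouse shows HT-Veh replicate 3 at the top, with 28 of 31 genes above their own medians and 10 genes at the highest value of all 16 mice. WT-Flx replicate 4 had 25 genes above their medians, HT-Flx replicate 3 had 26 and HT-Flx replicate 1 had 24. At the other end, HT-Flx replicate 4 had 3, HT-Veh replicate 1 had 4 and HT-Flx replicate 2 had 5 genes above, and HT-Flx replicate 2 held the lowest value of all mice for 9 genes. Every group had at least 1 mouse with 18 or more genes above and at least 1 with 12 or fewer. Library totals after normalization lay between 92.8% and 103.8% of their mean, the highest in HT-Veh replicate 3. The shares of all genes above their medians, highest or lowest in each mouse were not counted. The counts by mouse thus have no background and cannot show a trait particular to the astrocyte genes.

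The direction of the small changes was uneven in 1 comparison. In HT-Flx against HT-Veh mice, 5 of 31 astrocyte genes had a log2 change above 0, beside 51.2% of all genes, and the median was -0.051. The 5 were Aqp4, Gja1, Ppp1r3c, Dio2 and Gpc5. Leaving out 1 mouse at a time, the count ran from 4, without HT-Flx replicate 1, to 15, without HT-Veh replicate 3 or HT-Flx replicate 2. It was 11 without HT-Flx replicate 4, 8 without HT-Veh replicate 4 and 10 once the bulb score entered the fit. The median was -0.0014 without HT-Flx replicate 2. The genes share these libraries, so their directions are not independent of each other.

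In the other pairwise comparisons, 19 of 31 were above 0 in HT-Veh against WT-Veh, beside 51.8% of all genes, with a median of 0.038. There were 19 in WT-Flx against WT-Veh, beside 49.8%, with a median of 0.032, and 13 in HT-Flx against WT-Flx mice, beside 51.6%, with a median of -0.081. Each of these medians changed sign when 1 mouse was left out, to -0.033 without HT-Veh replicate 3, -0.027 without WT-Flx replicate 4 and 0.011 without WT-Flx replicate 4. The counts moved as well, from 19 to 12 in HT-Veh against WT-Veh without HT-Veh replicate 3, from 19 to 12 in WT-Flx against WT-Veh without WT-Flx replicate 4, and from 13 to 8 in HT-Flx against WT-Flx mice without WT-Flx replicate 1. Over both treatments 12 were higher in heterozygotes, beside 51.1% of all genes, and over both genotypes 13 were higher after fluoxetine, beside 50.9%. For the interaction 12 were above 0, beside 50.3%.

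The slope of each gene on the olfactory bulb score was also fitted. In a limma fit to all 16 mice with the 4 groups and the score, chosen after the values had been seen, the slope on the score passed an adjusted p of 0.05 for 2 astrocyte genes that rose, beside 4.78% of all genes, and for 1 that fell, beside 6.94%. With 3 of 31 genes in all, the astrocyte genes were not above the background, so the slopes describe single genes and not the astrocyte genes as a set. Slc1a2 fell by 0.16 on the log2 scale per unit of score (SE 0.031, adjusted p = 0.00345). Slc6a11 rose by 0.12 (SE 0.025, adjusted p = 0.0049) and Apoe by 0.086 (SE 0.025, adjusted p = 0.0331). In the 5 libraries with a score over 6, Slc1a2 lay between 55805 and 101235, with a median of 85069, against 98379 to 155956, with a median of 118194, in the other 11. Slc6a11 lay between 4675 and 8289 in the 5 and between 3899 and 4956 in the 11. Apoe lay between 22938 and 37021 in the 5 and between 21232 and 27594 in the 11. All 3 pairs of ranges overlapped. Without WT-Veh replicate 1, the library with the highest score of 9.78, 0 astrocyte genes and 147 of all genes passed, with slopes of -0.10 for Slc1a2 (limma adjusted p = 0.341), 0.12 for Slc6a11 (0.200) and 0.056 for Apoe (0.627). Apoe also missed the threshold without WT-Veh replicate 2, 3 or 4 or WT-Flx replicate 3 or 4, with adjusted p from 0.0524 to 0.0863.

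**Figure D5:**
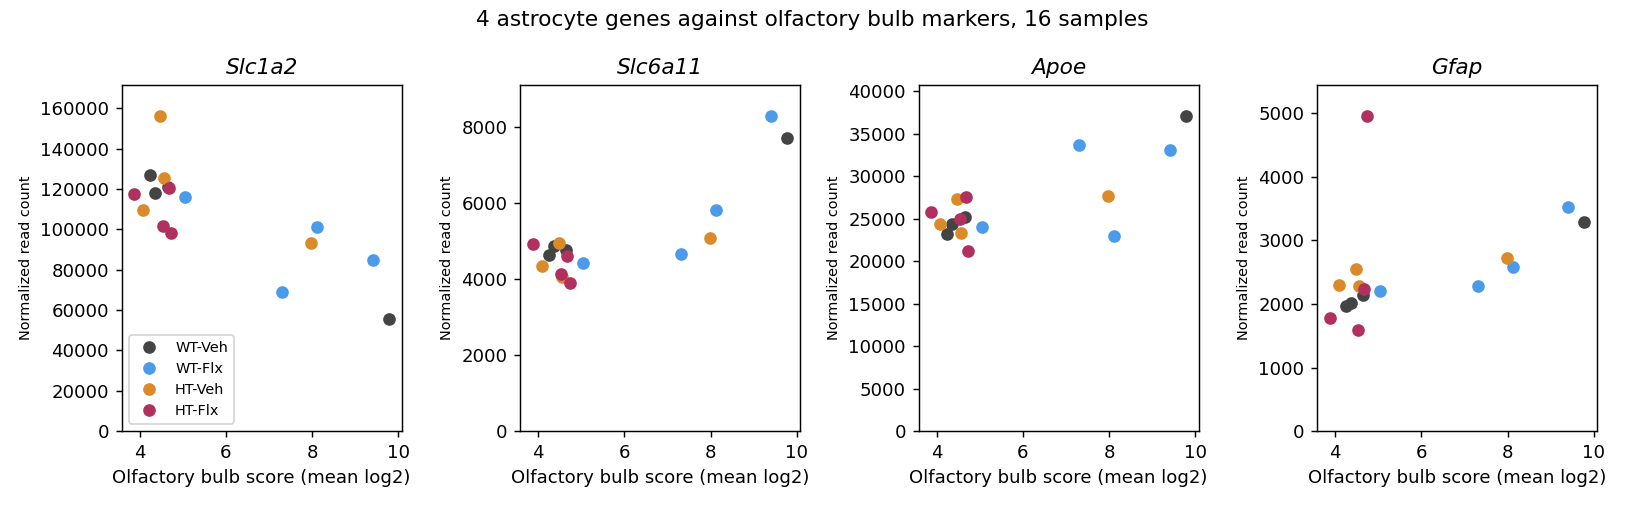
Normalized read counts of 4 astrocyte genes (vertical axes, from 0) against the olfactory bulb score (mean log2 of 9 bulb markers) in 16 mice, colored by group. Slc1a2 is lower and Slc6a11 and Apoe are higher to the right, where 1 WT-Veh, 3 WT-Flx and 1 HT-Veh library lie, and Gfap has its highest point, 4950, at a score of 4.73.

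The plot against the bulb score shows Gfap with a slope of 0.13 (SE 0.049, limma adjusted p = 0.106), and HT-Flx replicate 2 lies far above the other mice. Without that mouse the slope of Gfap passed, at 0.12 (limma adjusted p = 0.00338), and that of Fgfr3 passed without HT-Veh replicate 4, at -0.085 (limma adjusted p = 0.0421). With all 16 mice the slopes of the remaining 27 genes did not pass either. Slc1a3, which works beside Slc1a2 in glutamate uptake, had a slope of 0.0022 (SE 0.017).

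The RefSeq promoters (build GRCm38.p6) of the 2 genes that rose with the score, and whose RefSeq start is also their GENCODE gene start, are given as 250 bases that end before the start, 5′ to 3′ on the gene's strand. They are shown to give the sequence context of those 2 genes, whose counts did not always go together. In WT-Flx replicate 1 Slc6a11 was 4675 and Apoe 33660, and in WT-Flx replicate 2 Slc6a11 was 5818 and Apoe 22938. Capitals mark a GC box, a TATA box or a half-site of nuclear factor I, searched on both strands. Slc6a11 lies at chr6:114130991-114131240 on the plus strand and Apoe at chr7:19699189-19699438 on the minus strand.
Slc6a11: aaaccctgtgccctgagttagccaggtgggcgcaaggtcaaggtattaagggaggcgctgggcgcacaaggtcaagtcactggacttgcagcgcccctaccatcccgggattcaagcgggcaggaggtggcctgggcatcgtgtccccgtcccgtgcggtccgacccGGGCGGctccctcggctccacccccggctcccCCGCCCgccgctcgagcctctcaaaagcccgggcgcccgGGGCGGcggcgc
Apoe: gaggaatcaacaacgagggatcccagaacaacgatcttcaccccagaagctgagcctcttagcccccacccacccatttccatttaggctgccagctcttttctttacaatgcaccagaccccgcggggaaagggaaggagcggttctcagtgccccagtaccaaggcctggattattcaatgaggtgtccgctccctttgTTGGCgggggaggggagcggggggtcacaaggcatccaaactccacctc
The Slc6a11 stretch holds 3 GC boxes and has a GC content of 71.2%, and the Apoe stretch holds 1 nuclear factor I half-site and has a GC content of 57.2%. The GC box searched was GGGCGG, found in 32.7% of 32851 mouse promoters of this length. The TATA box was TATAAA, found in 12.4% of them, and none of the capitals above is one. The half-site was TTGGC, found in 41.5%. Of 37 promoters listed for 27 of the astrocyte genes, 14 hold a GC box, 7 a TATA box and 18 the half-site. These matches describe the letters only.

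Other lists of astrocyte genes also held no gene past limma's adjusted threshold, but they differed in direction. Of 26 further astrocyte-enriched genes, 0 passed limma's adjusted threshold in any comparison. In HT-Veh against WT-Veh mice 1 was higher at an unadjusted p under 0.05, beside 2.63% of all genes. That gene was Fam107a, an actin-associated stress-response gene, with a log2 difference of 0.35 (SE 0.14, limma adjusted p = 0.922). In HT-Flx against HT-Veh mice 5 of these 26 had a log2 change above 0, beside 51.2% of all genes, with a median of -0.060. In that comparison 1 was lower at an unadjusted p under 0.05, beside 1.64% of all genes. In HT-Flx against WT-Flx mice 3 were lower at that level, beside 4.87% of all genes, and the median of the 26 was -0.050. The count above 0 in HT-Flx against HT-Veh mice was low in both lists, which rest on the same 8 libraries.

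Genes of reactive astrocytes, 28 listed and 24 to 26 tested, had 0 adjusted calls in limma. Their medians were 0.0054 in HT-Veh against WT-Veh, 0.061 in HT-Flx against HT-Veh, -0.012 in WT-Flx against WT-Veh and 0.070 in HT-Flx against WT-Flx mice. In that order 2, 0, 1 and 4 genes had an unadjusted p under 0.05, beside 4.88%, 3.07%, 4.2% and 10.4% of all genes. Of 24 tested, 16 were above 0 in HT-Flx against HT-Veh mice, beside 51.2% of all genes. Their summed count ranged from 5896 to 9043 in WT-Veh and 6093 to 7589 in WT-Flx mice, and from 6363 to 6882 in HT-Veh and 6403 to 7810 in HT-Flx mice. The highest sums were those of WT-Veh replicate 1 and HT-Flx replicate 2.

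The 14 secreted synapse factors and phagocytic receptors of astrocytes had 0 adjusted calls, with medians of 0.12, -0.041, 0.075 and 0.0018 in the same order of comparisons. At an unadjusted p under 0.05 they held 0, 0, 1 and 1 genes, beside 4.88%, 3.07%, 4.2% and 10.4% of all genes. In HT-Flx against HT-Veh mice 2 of the 14 were above 0, beside 51.2% of all genes. The 18 astrocyte transcription regulators had 0 adjusted calls, with medians of -0.0019, 0.025, -0.036 and 0.051. They held 0, 0, 0 and 1 genes at an unadjusted p under 0.05, beside 4.88%, 3.07%, 4.2% and 10.4% of all genes. Of these 18, 11 were above 0 in HT-Flx against HT-Veh mice, beside 51.2% of all genes, and 14 in HT-Flx against WT-Flx mice, beside 51.6%. Several lists of markers of other cell types also leaned one way or the other, beside 51.2% of all genes above 0 in HT-Flx against HT-Veh mice. In HT-Flx against HT-Veh mice, 2 of 12 microglial and 1 of 12 endothelial and mural markers were above 0, with medians of -0.064 and -0.060, and 9 of 12 glutamatergic neuron markers were above 0, with a median of 0.090. Of the GABAergic neuron markers 2 of 10 were above 0, with a median of -0.039, and of the olfactory bulb markers 0 of 6, with a median of -0.72. Migrating neuroblast markers had 3 of 9 above 0, with a median of -0.066. Oligodendrocyte markers were more even, with 7 of 12 above 0 and a median of 0.040. So were those of their precursors, with 4 of 9 above 0 and a median of -0.063. The fit with the bulb score is given above, and the part of the other markers in the direction of the astrocyte genes was not tested.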

How the data were processed

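The deposited table held 1 signal per gene and sample, a normalized read count made by the authors from stranded poly-A libraries of medial prefrontal cortex. Per the labels, the submitters' processing notes and the paper's methods, paired-end reads were assigned to GRCm38 transcripts with Salmon 1.1.0, summed to genes with tximport and divided by DESeq2 1.30.1 size factors. The notes give R 4.1.1, and the methods name another R version for the import. Whether tximport's length correction was used is not given in the sources used here. Salmon's estimated counts need not be whole, so fractional values remain. Between 6.81% and 24.6% of values under 20 were whole multiples of the best single step within a tolerance of 0.02, so reads could not be recovered, the depth per sample is unknown and no count test was run. The scaling fixes only relative levels: a change shared by all genes would not be seen.

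Gene identifiers were named with GENCODE M21, and 18411 of 18424 matched a symbol. Groups and replicate numbers came from the sample titles, and replicates are separate mice. Fluoxetine was given to dams, and the litter of each mouse is not given in the sources used here. The fits treat the mice as independent. Where mice of 1 group shared a dam, a litter difference and a fluoxetine difference cannot be told apart. The 4 pairwise comparisons used the 8 samples of their 2 groups, and genotype, fluoxetine and interaction used all 16. Each was fitted with limma 3.58.1 (R 4.3.3; lmFit and eBayes with trend) on log2 of the value plus 1, keeping genes that reached 10 in 4 or more samples, with Benjamini-Hochberg adjustment over all genes and a threshold of 0.05. A fold on this scale understates the change of low genes. Scripts were tested on simulated data.

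The members and gene lists were chosen with earlier results of these data known. Per-sample values are given for the defining markers Gfap, Aqp4, Slc1a2, Slc1a3, Gja1 and Aldh1l1 and for the 2 members with the smallest p in each comparison. Apoe was added after its values were seen. Other lists are given by counts. The olfactory bulb score is the mean log2 of 9 markers in the table of 10 listed. Alternatives were pseudocounts of 0.1 and 8, no filter and a mean of at least 100, upper quartile and quantile scaling, a replicate block, the bulb score as covariate, all 4 groups in a fit, omission of the 5 libraries with a score over 6, and omission of each mouse. Omission of those 5 libraries leaves 1 WT-Flx mouse. Levels per kilobase divide by the longest coding transcript. Promoters came from RefSeq (GRCm38.p6) with chromosome 18, where Aqp4 lies, left out. In that set 27 of 31 members had an entry. The exact permutation test was run in R 4.3.3.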

Additional observations from a re-analysis of the deposited data

Results flagged for a closer look

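A sample was listed when it lay far from the other 3 of its group by Dixon's test, which chance does for about 1 in 20 groups. Of 124 groups of 4 values of the astrocyte genes, 9 held such a sample, and 3 of 12 groups tested for other measures did, so 12 of 136 in all. No difference between genotypes in the effect of fluoxetine passed its test.

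WT-Veh replicate 1 accounted for 6 of the 12. Gfap was 3296 in it, against 1962 to 2139 in the other WT-Veh mice, Apoe 37021 against 23168 to 25173, and Slc6a11 7718 against 4653 to 4887. Slc1a2 was low at 55805, against 118194 to 127142, and Dio2 at 1868, against 2851 to 3003. Its olfactory bulb score was 9.78, against 4.25 to 4.65.

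HT-Veh replicate 3 was high for Plpp3, at 8593 against 7453 to 7621, and for Clu, at 18988 against 16878 to 17201. WT-Flx replicate 1 was also high for Clu, at 17902 against 17034 to 17146, a gap that is large only beside the closeness of the other 3. HT-Flx replicate 2 was low for Gjb6, at 810.2 against 1411 to 1516. HT-Veh replicate 4 had a bulb score of 7.98 against 4.08 to 4.56. HT-Flx replicate 4 was low for Arid1b, at 1545 against 1661 to 1671.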

How the results depend on the processing

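The count of 0 astrocyte genes past limma's adjusted threshold was the same in all 147 alternative fits, and all 294 values of the genes named for their small p in a comparison kept their direction and stayed short of that threshold. At most 5 genes had an unadjusted p under 0.05 in 1 direction in any fit, as in HT-Flx against WT-Flx mice without WT-Flx replicate 1 or HT-Flx replicate 3 and with upper quartile or quantile scaling, where 5 were lower in place of 2. The main fit of that comparison had 4.87% of all genes lower at that level. The shares of all genes in the alternative fits are not given here, so the 5 cannot be set beside a background. Beside the changes given above, counts of genes above 0 moved by over 1.5 times in that comparison (7 in place of 13, with quantile scaling or without the 5 libraries with a bulb score over 6) and in HT-Flx against HT-Veh mice (8 in place of 5 without those libraries). For the interaction the count was 6 in place of 12 without WT-Veh replicate 3, HT-Flx replicate 1 or HT-Flx replicate 3, and 7 without WT-Flx replicate 1.

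Replicate numbers were not treated as pairs in the main fits. The deviations of same-numbered mice from their group means had correlations of -0.225 to 0.310. Mice of different numbers were not compared in this way, so these values cannot show whether the numbers pair the mice. With the replicate block, 0 astrocyte genes passed in each of the 7 comparisons.

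With the median over genes in place of the mean, the difference in level between HT-Flx and HT-Veh mice was 0.079 in place of -0.050 and the interaction 0.041 in place of -0.074. Both changed sign, and the cause was not tested. All 4 values lie nearer to 0 than 0.101, the within-group SD of the mean level. The genotype difference of Arid1b ranged from -0.45 to -0.34 when 1 mouse was left out. It passed with adjusted p = 0.0115 in limma without WT-Veh replicate 1 and, at -0.50, with adjusted p = 0.0264 with the bulb score as covariate. Depth is unknown, and 4 mice a group limit what can be seen in the variable genes Gfap, Slc1a2 and Gjb6.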

Other observations

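HT-Flx replicate 2, the mouse with the highest Gfap count and the lowest count for 9 astrocyte genes, also had the highest values of 3 activity-regulated neuronal genes, picked after their values were seen. Fosb, an immediate early transcription factor, was 3729 in this mouse and 240 to 472 in the other 15. Nptx2, a secreted synaptic pentraxin, was 6245 against 714 to 1004, and Bdnf, a neurotrophin, was 1561 against 429 to 669. Cd44, a surface receptor of reactive astrocytes, was 249.6 in this mouse and 54.3 to 161 in the others, while Serpina3n, a secreted protease inhibitor of the same state, was 362 against 220 to 532. Lcn2, a secreted lipocalin of reactive astrocytes, was 375 in WT-Veh replicate 1 and 0.989 to 19.6 in the other 15 mice. Vim, looked at beside them, was 1616.5 in WT-Veh replicate 1 and 1405 in HT-Flx replicate 2, against 755 to 1371 in the remaining mice. Cd44, Serpina3n, Lcn2 and Vim were picked by hand, so they do not stand for the reactive genes as a list.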
